A study of Ovis aries with 14 samples.

Results

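In the lungs of these lambs, 23 of 27054 genes were higher in 2 steps, first in lungs that had received respiratory support for 3 days than in fetal lungs, and again in lungs at term. They were chosen on their level in CPM, the count of a gene per 1000000 counts of its library. A gene qualified if its mean over the 14 libraries was from 2 to under 1000 CPM, if every supported and term library lay above every fetal library, if the mean of these 8 libraries was at least 1.5 times that of the 6 fetal ones, and if both term libraries lay above all 6 supported ones. The steps themselves were therefore fixed by the choice and are described here without a test. Differences within the fetal lungs and between the 2 kinds of support were not themselves criteria of the choice and were tested. The choice did hold every supported library between the highest fetal and the lowest term library, which limits how far the 2 kinds of support can differ.

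RNA came from the right lower lung lobe of sheep (Ovis aries), and each library came from a separate animal. Preterm lambs labelled gd134 (gestational day) were supported either by invasive mechanical ventilation through a tube in the airway (IMV, n = 3) or, without a tube, by a mask (noninvasive respiratory support, NRS, n = 3). Untreated fetal lungs were taken at about the start of the support period (fetal start, n = 3; gd127, gd128 and gd131 for replicates 1, 2 and 3) and near its end (fetal end, n = 3; gd135, gd134 and gd136 for replicates 1, 2 and 3). The identifiers of fetal end replicates 1 and 2 carry each other's day, so those days may be exchanged in the labels. Untreated lungs labelled gd150 made up the term group (n = 2, replicates 2 and 3), and the labels give no breed or birth status.

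Before birth the lung is filled with liquid and exchanges no gas. In late gestation its airspaces widen, their walls thin, type II cells fill with surfactant, and the epithelium turns from secreting to absorbing liquid. Birth adds air, cyclic stretch, more oxygen and contact with microbes, and preterm support brings these to a lung that is still developing.

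The deposited table lists genes by Ensembl identifier only, and 0 of its identifiers matched a name in the reference table used here. The roles, positions and sequences of the 23 genes are therefore not given, and lung cell type markers could not be checked against the tissue label. The genes are called below by their rank in the ratio of mean CPM at term to mean CPM over the 6 fetal libraries, from rank 1 for the highest ratio to rank 23 for the lowest. 4 of them are also given by identifier. In RNA from whole tissue, more cells of a type and more RNA per cell cannot be told apart.

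Library totals ran from 23267448 to 31586235 counts. The least covered gene, that of rank 1, had 7 counts in its lowest library, and each of the other 22 genes had at least 31 counts in every library. Mean levels over all libraries ran from 3.16 to 182 CPM with a median of 35.8 CPM. They were under 10 CPM for 7 genes, from 10 to 100 CPM for 14 genes and over 100 CPM for 2 genes.

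For 21 of the 23 genes the term mean was under 5 times the fetal mean. The ratio of the term mean to the fetal mean ran from 1.82 to 109 with a median of 2.24, and it was at least 2 for 15 genes and at least 4 for 5 genes. From fetal to supported lungs the ratio of means had a median of 1.6 (range 1.39 to 23.6), and from supported to term lungs it had a median of 1.40 (range 1.19 to 4.61). By ratio, the first step was the larger for 20 of 23 genes, the exceptions being ranks 5, 7 and 10. Counted in CPM the order turned round, and the first step was the larger for 8 of 23 genes. The choice of genes set a fold limit on the supported and term libraries over the fetal ones. It set none on term over supported lungs, so it favours a large first ratio. Nothing is read from which step was the larger. Supported and term animals differ in labelled day as well as in support, so age and support cannot be told apart in the second step. In the first step, fetal start animals are labelled gd127 to gd131, against gd134 with support. Fetal end animals have identifiers ending in 19, against 17 or 18 with support. These differences are mixed with support in the first step.

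**Figure D1:**
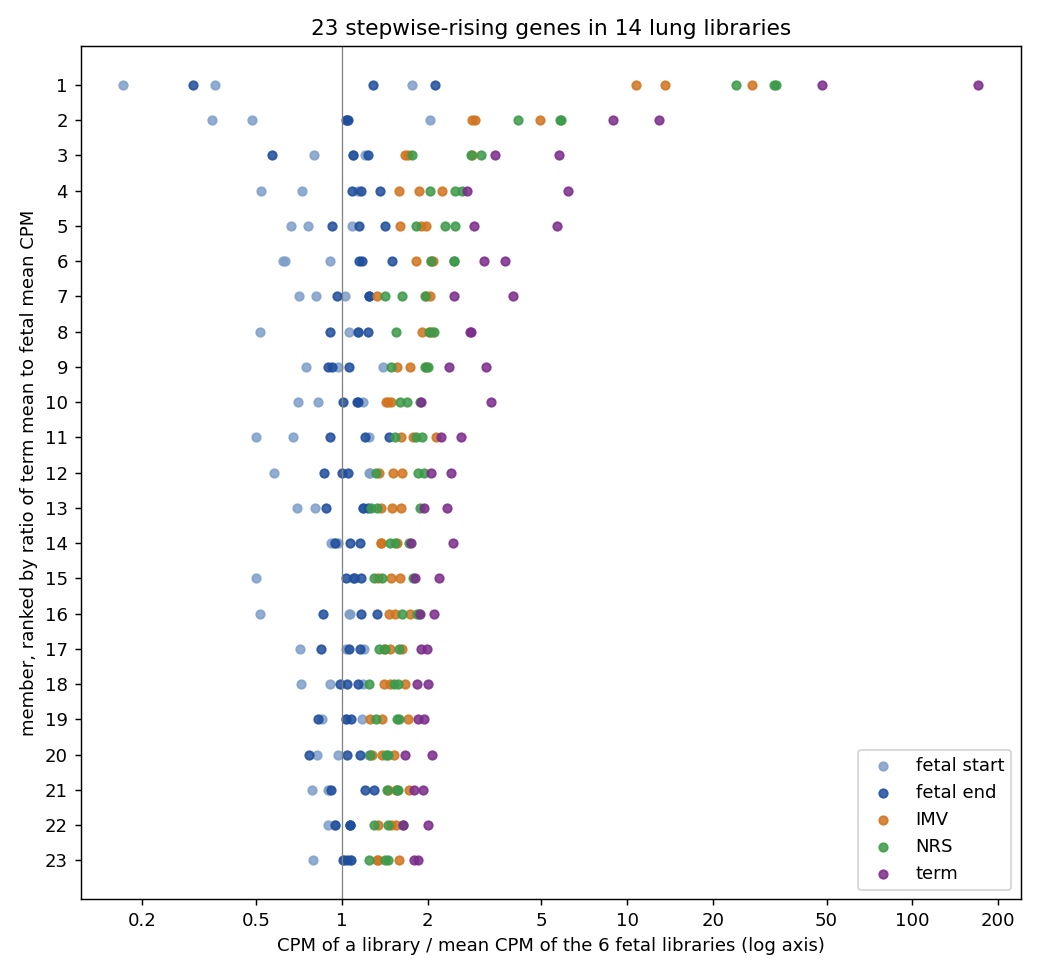
Each row is 1 of the 23 genes, ranked by the ratio of term to fetal mean CPM, and each point is a library. The horizontal log axis gives the library's CPM over the mean of the 6 fetal libraries. Ranks 1 and 2 stand well to the right, with ratios of 109 and 11.0, and for the other 21 genes the ratio ran from 1.82 to 4.60.

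The gene of rank 1, ENSOARG00000004807, had few counts in fetal lungs. It had 0.253, 0.532 and 2.60 CPM in fetal start replicates 1, 2 and 3 and 3.13, 1.90 and 0.443 CPM in fetal end replicates 1, 2 and 3, which correspond to between 7 and 82 counts. In IMV replicates 1, 2 and 3 it had 40.3, 19.98 and 15.8 CPM, and in NRS replicates 1, 2 and 3 it had 35.4, 48.3 and 49.0 CPM. The supported mean was 23.6 times the fetal mean, and the ranges of IMV and NRS overlapped. The term libraries had 250.0 CPM (replicate 2) and 70.8 CPM (replicate 3), so the second step differed 3.53-fold between these 2 animals.

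ENSOARG00000002862, rank 2, which was singled out after its values had been seen, had more counts in fetal lungs. It had 13.7, 9.93 and 57.7 CPM at fetal start and 29.4, 29.8 and 29.5 CPM at fetal end. The library labelled gd131 was high among the fetal lungs, while those of fetal end lay close together. With IMV it had 141, 82.9 and 81.0 CPM, with NRS 117, 165 and 166 CPM, and at term 367 and 254 CPM. The fetal mean was 28.3 CPM and the term mean 310.2 CPM, and none of the other 22 genes differed by as many CPM.

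ENSOARG00000008561, rank 6, had no overlap between the fetal groups. It had 20.7, 20.3 and 29.5 CPM at fetal start and 49.1, 38.5 and 37.6 CPM at fetal end. It had 68.1, 66.9 and 59.5 CPM with IMV, 67.0, 80.9 and 80.3 CPM with NRS and 122 and 103 CPM at term. The groups therefore formed a ladder in which IMV and NRS were the only neighbours that overlapped. The choice of genes required the gaps from fetal to supported and from supported to term lungs. Only the gap between the fetal groups was left free, and 6.96% of all genes tested had it in this direction.

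ENSOARG00000017954, rank 21, had the highest mean level of the set, 182 CPM, and one of the lowest ratios, 1.85. Levels were 119.6, 105 and 121 CPM at fetal start and 162, 174 and 123 CPM at fetal end. They were 230.1, 207 and 195 CPM with IMV, 210.5, 193 and 209 CPM with NRS and 239 and 258 CPM at term. The supported lungs had covered most of the distance here, and IMV replicate 1 came within 1.04-fold of the lower term library.

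**Figure D2:**
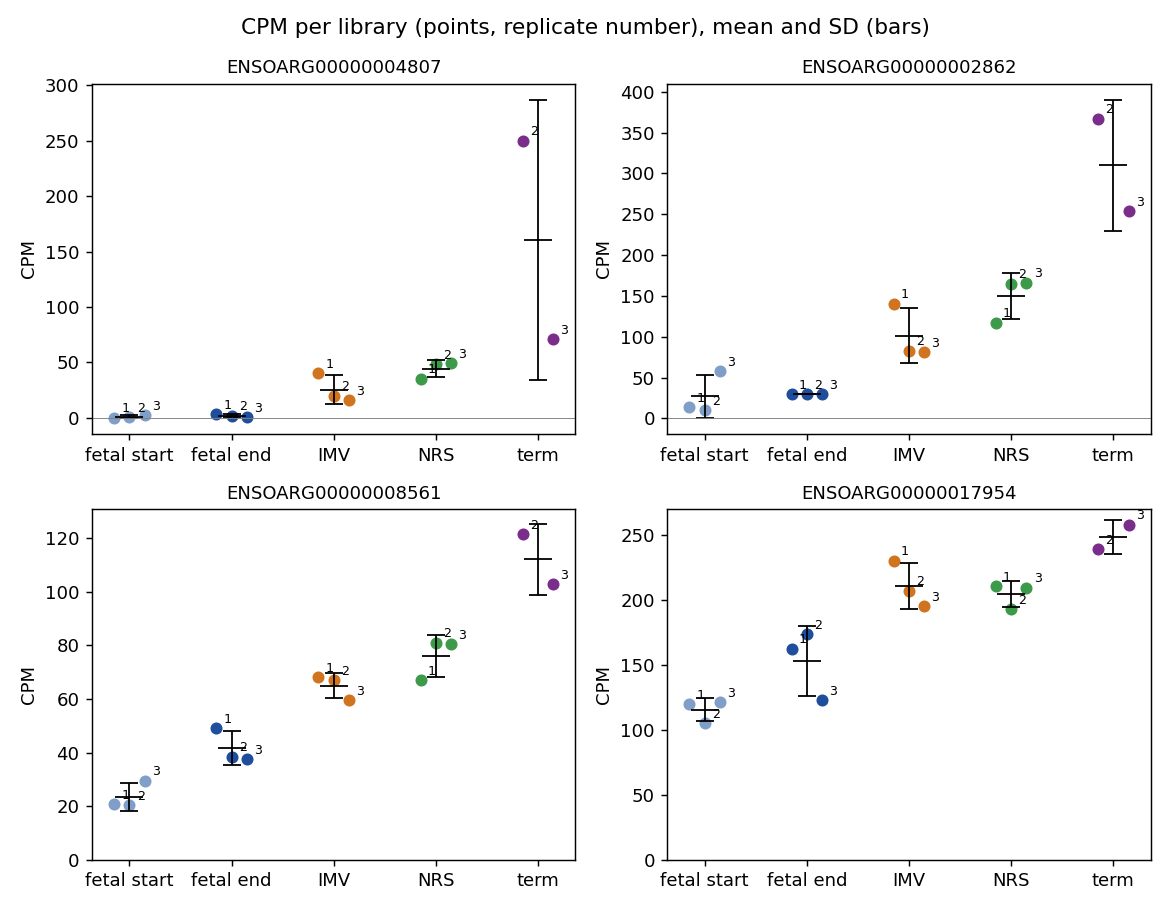
CPM in every library for the 4 genes given by identifier. Points carry the replicate number, and bars give the mean and SD of each group (n = 3, term n = 2). ENSOARG00000004807 runs from under 4 CPM in fetal lungs to 250.0 CPM in term replicate 2, while ENSOARG00000017954 spans only 105 to 258 CPM.

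How far support had carried each gene was expressed as its position, the difference between the supported and the fetal mean as a percentage of that between the term and the fetal mean, in CPM. The choice of genes kept this value between 0 and 100, and within narrower limits where the fetal or the term libraries of a gene spread apart. The median position over the 23 genes was 43.95% with IMV (range 15.03% to 67.0%) and 48.1% with NRS (range 26.9% to 78.3%). Taken per library first, the median was 43.9% ± 2.45 with IMV and 48.4% ± 11.0 with NRS (SD, n = 3 each), so the 2 kinds of support differed by less than the spread between NRS animals. Position was above 50% for 9 genes with IMV and for 8 genes with NRS. Only the gene of rank 16 exceeded 75%, with NRS, at 78.3%. Without term replicate 3 the genes that meet the rule change, and the IMV median falls to 28.4%.

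Position is given next by the size of the overall rise, as a description only, since the term and fetal means enter both values and were used in the choice. The 7 genes with a term to fetal ratio of at least 3 had a median position of 32.9% for all supported libraries together (range 21.0% to 47.6%), against 49.5% (range 36.2% to 68.5%) for the other 16 genes. On a log2(CPM + 0.1) scale the same medians were 54.6% and 59.1%, so the gap was smaller on that scale. With IMV the 7 genes had a median of 26.0% and the 16 genes 50.3%. With NRS the values were closer together, 40.1% and 48.8%.

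**Figure D3:**
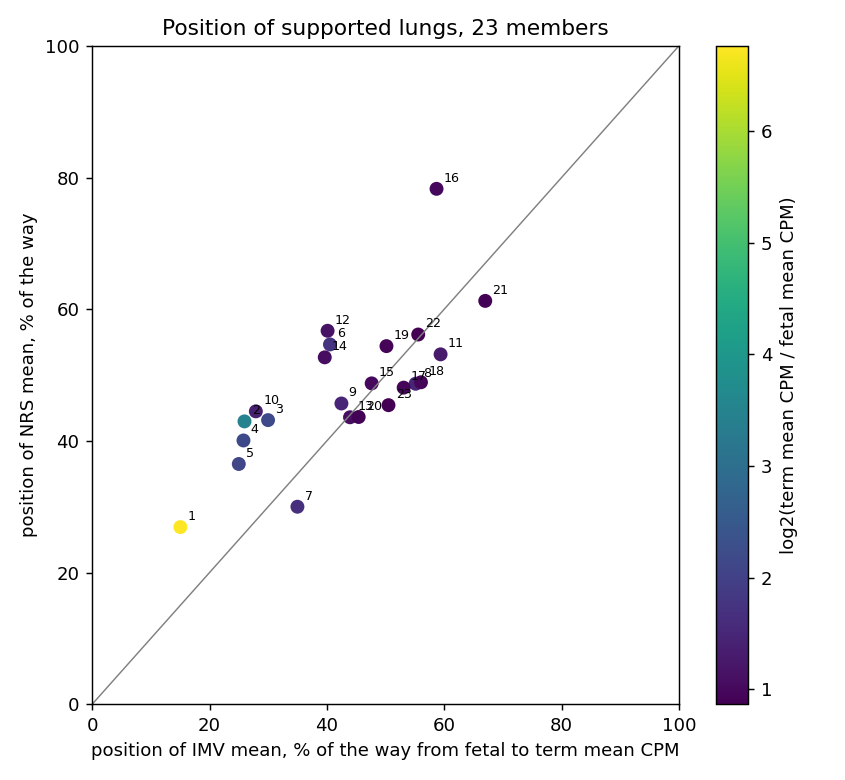
Each point is 1 of the 23 genes, labelled by rank, with the position of the IMV mean on the horizontal axis and that of the NRS mean on the vertical axis, both as % of the distance from fetal to term mean CPM. Colour gives log2 of the term to fetal ratio, and the line marks equal positions. Ranks 1 to 6 all lie above the line, and rank 7 lies below it.

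The set was narrow at its edges. The lowest term library exceeded the highest supported library by a factor of 1.00 to 1.53, and for 12 genes that factor was under 1.1. At rank 22 the margin was 84.0 CPM in term replicate 2 against 83.9 CPM in NRS replicate 1. The lowest supported or term library exceeded the highest fetal library by a factor under 1.1 for 8 genes. At rank 20 that margin was 40.3 CPM in NRS replicate 3 against 40.1 CPM in fetal start replicate 3. Both margins are smaller than the range of the NRS group for the same gene. On the limit of 1.5, the 3 genes just inside had ratios of 1.501, 1.505 and 1.55 for the 8 supported and term libraries over the 6 fetal ones, and the 3 just outside had 1.45, 1.46 and 1.49.

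The number of genes that qualified depended most on term replicate 3. Without the demand that both term libraries exceed the supported ones, 220 genes met the rule, and 197 of these failed on that demand alone. In 120 of the 197 genes a single term library did exceed all 6 supported ones, and that library was replicate 2 for 106 genes and replicate 3 for 14 genes. The shares of all genes with these orders are not given here. Without term replicate 3 the rule was met by 20 of the 23 genes and 115 others, and without term replicate 2 by 21 of the 23 and 15 others. A rule left with a single term library is looser for that reason alone. The mirrored rule, for genes that fall in 2 steps, was met by 12 genes.

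Among the 23 genes themselves, term replicate 2 was the higher term library for 17 genes. It was at least 1.5 times as high as replicate 3 for 6 genes (ranks 1, 3, 4, 5, 7 and 10), and the opposite held for 0 genes. Of the 13364 genes in the same CPM range, replicate 2 was the higher in 49.2%, and it was at least 1.5 times as high in 8.31%. Replicate 3 was at least 1.5 times as high as replicate 2 in 7.18% of them. Rank 4 was at 31.0 and 13.7 CPM in the 2 term libraries, and rank 10 at 119.4 and 67.6 CPM. The 7 genes with a term to fetal ratio of at least 3 had a median ratio between the term libraries of 1.68 against 1.07 for the other 16. A single high term library raises the ratio that splits these genes, so nothing is read from that difference.

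The genes were sorted by their lowest NRS library after the data had been seen, and the sorting is described without a test. Some library must be lowest in every gene, so the sorting by itself shows no structure. The shares of all genes with NRS replicate 1 lowest, or with IMV replicate 3 lowest or highest, are not given here. For 21 of the 23 genes the lowest was NRS replicate 1 or 3. The other 2 genes, ranks 11 and 21, had NRS replicate 2 lowest. In 7 genes (ranks 1, 2, 4, 5, 6, 9 and 14) NRS replicate 1 was the lowest NRS library. In all 7 of these IMV replicate 1 was the highest IMV library, term replicate 2 was the higher term library and the NRS mean exceeded the IMV mean, and in 6 of 7 IMV replicate 3 was the lowest IMV library. In 14 other genes NRS replicate 3 was the lowest NRS library, which it was in 42.3% of the 13364 genes in the same CPM range. Among those 14 genes IMV replicate 3 was the highest of its group in 8 and IMV replicate 1 in 5, and the NRS mean exceeded the IMV mean in 7. Over the same range IMV replicate 1 was the highest IMV library in 29.4% of genes, and the NRS mean exceeded the IMV mean in 57.6%. The median term to fetal ratio was 4.29 for the 7 genes and 1.996 for the 14 genes, and nothing is read from that difference.

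**Figure D4:**
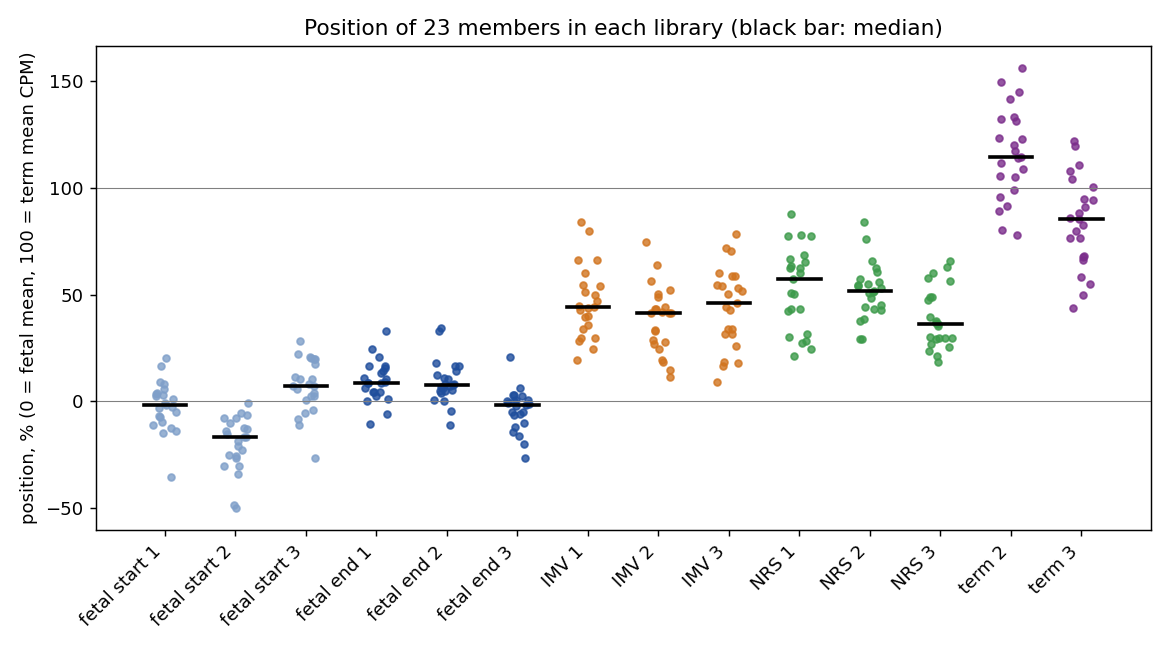
Position of each of the 23 genes in each library, where 0% is the fetal mean and 100% the term mean in CPM, and black bars give the median of a library. Medians were 44.0%, 41.4% and 46.3% in IMV replicates 1 to 3, 57.4%, 51.6% and 36.2% in NRS replicates 1 to 3, and 114.6% and 85.4% in term replicates 2 and 3. Fetal start replicate 2 had the lowest median, -16.8%.

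Whether the 2 kinds of support moved these genes differently was tested with IMV against NRS. The choice of genes did not compare these groups, but it held all their libraries between the highest fetal and the lowest term library. That limits how far IMV and NRS can differ, so nothing is read from counts below those of all genes. No difference was detected: 0 of the 23 genes passed (edgeR quasi-likelihood test, Benjamini-Hochberg adjusted over 17069 genes), where 0% of all genes tested did. At an unadjusted p under 0.05 the count was 0 of 23 genes, against 10.9% of all genes, and DESeq2 called 0 of the 23, against 0.573% of all genes. The log2 fold change of IMV over NRS ran from -0.75 to 0.14 with a median of 0.01, where the median over all genes tested was 0.00. It was positive for 12 genes and negative for 11. Standard errors ran from 0.10 to 0.64 with a median of 0.22, so a difference of the size of that error could not have been seen for a typical gene.

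The 2 steepest genes had the largest estimates, both towards NRS. ENSOARG00000004807 averaged 25.4 ± 13.1 CPM with IMV and 44.3 ± 7.66 CPM with NRS (SD, n = 3 each), which gave -0.75 ± 0.64 on the log2 scale (SE; adjusted p = 0.693 in edgeR). ENSOARG00000002862 averaged 101.5 ± 33.9 CPM and 149 ± 28.02 CPM (SD, n = 3 each), or -0.51 ± 0.50 on the log2 scale (SE; adjusted p = 0.731 in edgeR). ENSOARG00000008561 had the smallest p among the genes lower with IMV, at 64.9 ± 4.66 CPM against 76.1 ± 7.86 CPM (SD, n = 3 each), or -0.18 ± 0.16 on the log2 scale (SE; adjusted p = 0.692 in edgeR). For ENSOARG00000017954 the means were 211 ± 17.8 CPM and 204 ± 9.95 CPM (SD, n = 3 each), or 0.09 ± 0.11 on the log2 scale (SE; adjusted p = 0.798 in edgeR). In all 4 genes the difference was of about the size of its standard error.

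A single gene of the 23, rank 10, had all NRS libraries above all IMV libraries, where 13.4% of all genes tested did. In 0 of the 23 genes did all IMV libraries lie above all NRS libraries, where 6.51% did. The choice of genes limits these counts as well, so nothing is read from their being lower. Rank 10 had 53.0, 51.7 and 50.8 CPM with IMV and 60.2, 67.0 and 57.0 CPM with NRS. The estimate was -0.20 ± 0.20 on the log2 scale (SE; adjusted p = 0.744 in edgeR). IMV animals have identifiers ending in 17, 17 and 18 and NRS animals in 18. With this suffix as a covariate the median over the 23 genes was -0.05. Then 0 of the 23 genes were called, where 0 of all 17069 genes were. Only IMV replicate 3 shares the suffix of the NRS animals, which limits what this fit can show.

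**Figure D5:**
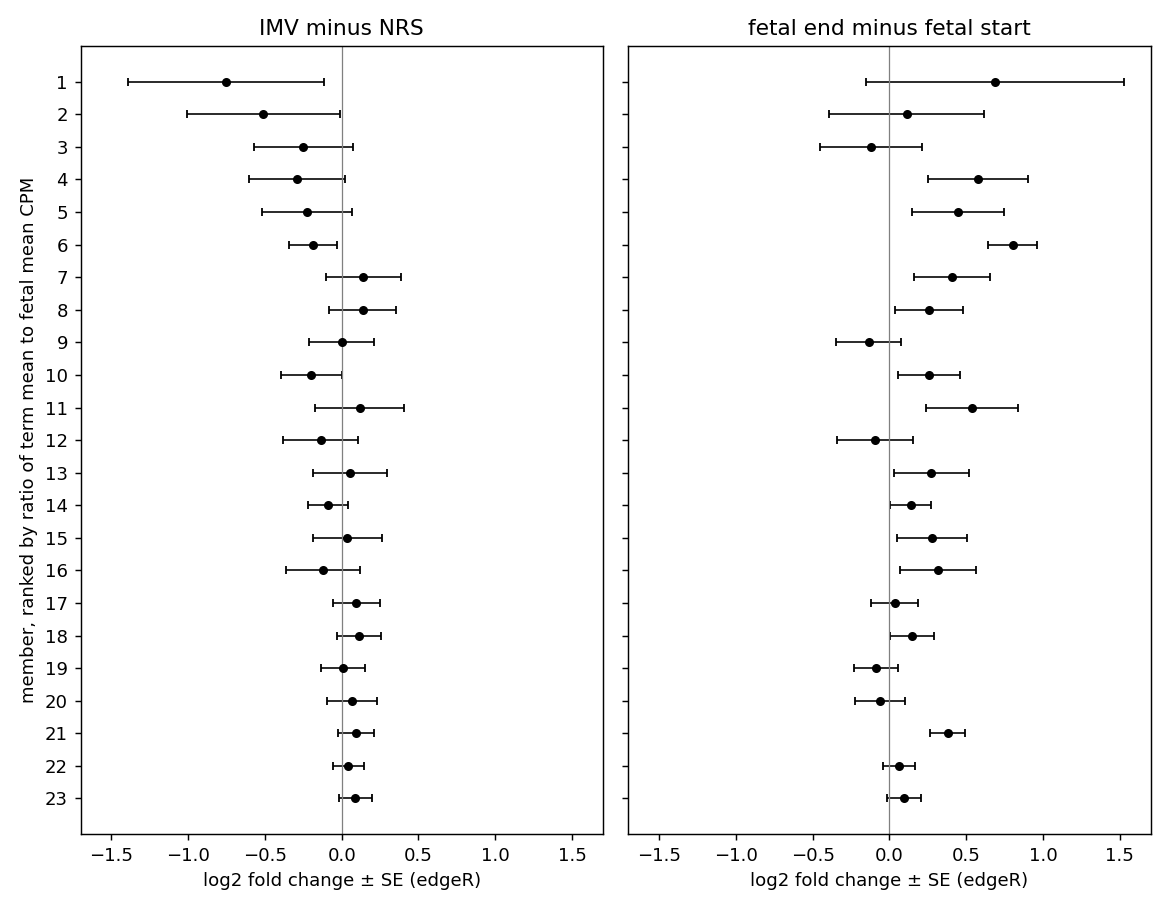
Log2 fold change ± SE from the edgeR fit for each of the 23 genes, ranked as before, for IMV over NRS (left) and fetal end over fetal start (right). On the left 21 of 23 estimates lie within 0.3 of 0, and on the right 18 of 23 are positive, with rank 6 the highest at 0.80.

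Fetal end was also tested against fetal start, over about the period of support. The choice of genes used the mean and the highest of these fetal libraries, and the identifier suffix differs between the 2 groups. A lean in this comparison therefore does not show by itself that the genes were rising in utero. Estimates leaned upwards, but 0 of the 23 genes passed in edgeR, where 0.00586% of all genes tested did. The mean was higher at fetal end for 18 of 23 genes, and the median log2 fold change was 0.26 against 0.00 for all genes tested, of which 50.7% were positive. At an unadjusted p under 0.05 the count was 2 of 23 genes, against 7.74% of all genes. In 2 genes (ranks 6 and 21) every fetal end library lay above every fetal start library, where 6.96% of all genes tested did so, and the opposite held for 0 genes, where 4.43% did.

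These 2 genes were ENSOARG00000008561, with an estimate of 0.80 ± 0.16 on the log2 scale (SE; adjusted p = 0.352 in edgeR), and ENSOARG00000017954, with 0.38 ± 0.11 (SE; adjusted p = 0.462 in edgeR). The former went from 23.5 ± 5.22 to 41.7 ± 6.38 CPM and the latter from 115 ± 8.91 to 153 ± 26.7 CPM (SD, n = 3 each). DESeq2 called ENSOARG00000008561 (adjusted p = 0.00411, with adjusted p from 0.00411 to 0.928 over its alternatives) and none of the other 22, where it called 0.534% of all genes. For ENSOARG00000004807 the estimate was 0.69 ± 0.84 (SE; adjusted p = 0.895 in edgeR) and for ENSOARG00000002862 it was 0.11 ± 0.50 (SE; adjusted p = 0.978 in edgeR). The direction of ENSOARG00000002862 turned to -0.21 without fetal start replicate 1 and to -0.28 without fetal start replicate 2. These 2 steepest genes of the set had the largest standard errors in this comparison.

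The lean towards fetal end depended most on 1 library of the 6. Fetal start replicate 2, labelled gd128, was the lowest of the 6 fetal libraries for 16 of 23 genes, where it was the lowest for 26.7% of the 13364 genes in the same CPM range. Without it the median log2 fold change was 0.02. It was 0.12 without fetal end replicate 1, 0.37 without fetal start replicate 3 and 0.19 without each of the other 3 fetal libraries in turn. Fetal start replicate 3, labelled gd131 and the oldest of its group, was the highest fetal start library for 18 of 23 genes, where 39.1% of genes in the range had that order. Fetal end replicate 3, labelled gd136 and the oldest of the fetal lungs, was the lowest fetal end library for 19 of 23 genes, where 45.9% of genes in the range had that order. The choice of genes used the fetal mean and bounded the fetal libraries only from above. It thus favours genes with a low fetal library, and nothing is read from these counts beside the shares in the range. The relation of level to labelled day was not tested. Fetal end animals have identifiers ending in 19 and fetal start animals in 17 or 18, so age and whatever the suffix marks cannot be told apart in this comparison.

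The median coefficient of variation over the 23 genes was 26.6% at fetal start, 14.4% at fetal end, 8.97% with IMV and 12.1% with NRS. For the 13364 genes in the same CPM range it was 13.9%, 11.9%, 11.3% and 11.6%. The choice of genes held every supported library between the highest fetal and the lowest term library and bounded the fetal libraries only from above, so it bears on these spreads itself, and nothing is read from their order.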

How the data were processed

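Total RNA of 14 libraries was sequenced after a stranded total RNA kit, per the labels' protocols. Raw counts for each Ensembl gene came in a single table that the authors deposited, and 0 of its columns were left unused. The submitters' processing notes name STAR 2.7.0f, featureCounts 1.6.3, DESeq2 1.22.2 and the build Oar_v3.1. The sources used here give no annotation release and no strand setting, so counts of overlapping or near-identical genes are uncertain.

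Sample titles gave the groups and the replicate numbers. CPM is the count over the column total. edgeR 4.0.16 in R 4.3.3 (TMM, filterByExpr with a count minimum of 10, quasi-likelihood F test) fitted 5 group means to all libraries with 9 residual degrees of freedom. It tested 17069 genes, and all 23 members passed the filter. Calls are at a Benjamini-Hochberg adjusted p under 0.05, and the SE is the fold change over the root of F. The fit was tested on simulated counts. Alternatives were DESeq2 1.42.0, other scaling, filter, samples, covariates, rule limits and each library left out.

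The members and gene lists were chosen with earlier results of these data known. The 28 lists of symbols (364 symbols) could not be used, since 0 symbols occur in the table. Members are given by identifier if highest in term to fetal ratio, highest in mean CPM, or of the 2 smallest p among those lower in IMV than NRS, and rank 2 was added.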

Additional observations from a re-analysis of the deposited data

How the results depend on the processing

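The share of all 27054 genes that met the rule was 0.0850% (23 genes). It was 0.0333% (9 genes) with a fold limit of 2 and ran from 0.0739% (20 genes, without fetal start replicate 2) to 0.499% (20 of the 23 and 115 others, without term replicate 3) with 1 library left out. Without IMV replicate 1 or NRS replicate 3 it was 0.129% (35 genes each), and without term replicate 2 it was 0.133% (36 genes). With TMM-scaled CPM 24 genes met it, of which 22 belong to the 23. The median position with IMV ran from 28.4% to 47.2% with 1 library left out and was 57.3% on the log2(CPM + 0.1) scale. That with NRS ran from 40.6% to 55.2% and was 61.7% on the log2 scale. In IMV against NRS 0 members were called under each of 12 alternatives. Of all genes tested, DESeq2 called 0.573% there and the edgeR alternatives from 0 to 2 genes. In fetal end against fetal start 1 member was called with DESeq2 and 0 under the other 10 alternatives. Of all genes tested, DESeq2 called 0.534% there and the edgeR alternatives from 0 to 5 genes. With so few calls over all genes, nothing is read from the members staying uncalled. The median log2 fold change of the members there, 0.26, ran from 0.02 to 0.37 with 1 library left out. ENSOARG00000002862 turned in that comparison to -0.21 without fetal start replicate 1 and ran from -0.28 (without fetal start replicate 2) to 1.29 (without fetal start replicate 3). The replicate number as a block gave 0 members called in either comparison, where 0 of all 17069 genes were, with medians of 0.01 and 0.25. Same-numbered libraries did not deviate together (r across genes from -0.15 to -0.002 and from -0.10 to -0.07). These values gave no sign that the numbers pair the animals, but with so few libraries they cannot exclude it. The cause of these shifts was not tested. With 2 term libraries and 3 in each other group, the small number of animals limits the precision, and the counts of rank 1 in fetal lungs are low.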
